A study of Mus musculus with 24 samples.

Results

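In methylated DNA immunoprecipitation sequencing (MeDIP–seq), DNA fragments are pulled down with an antibody against 5-methylcytosine (5mC), and the 5mC signal in Tet2-KO mouse embryonic stem (mES) cells was compared with that in wild-type (WT) mES cells in windows of 100 bp. The windows described here fell to near the floor of the count scale in Tet2-KO cells without reaching 0. They were chosen by their counts: each was listed by the authors, lay on 1 of 16 autosomes (chromosomes 2 to 11, 13, 14 and 16 to 19), had at most 3 reads in each of the 3 Tet2-KO libraries and at least 1 read in 1 of them, and had a lower mean RPKM (read count scaled to window length and library total) in Tet2-KO than in WT. This gave 1125 windows, which were 18.4% of the 6103 lower windows listed on these chromosomes. The authors' test had listed 11865 windows as lower out of 4252847 tested in the whole genome, or 0.279% (adjusted p under 0.1), and since the rule used this same contrast nothing is read from that share.

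The samples were WT siNC and Tet2 KO siNC, with 3 immunoprecipitated libraries each, from WT and Tet2-/- mES cells cleared of feeder cells, transfected with a control siRNA and kept in serum with LIF, CHIR99021 and PD0325901, which inhibit GSK3 and MEK. The lines were gifts from another laboratory, and a clone number or strain is not given in the sources used here. Other groups of the series entered only where they listed the same windows: WT and Tet2 KO cells with an siRNA against the RNA methyltransferase gene Nsun2, and WT and Pspc1 KO cells with immunoprecipitated and Input libraries. The immunoprecipitated libraries of the Tet2 comparison held 8920000 to 15350000 reads, as worked back from each window's count and RPKM. In both groups replicates 2 and 3 agree within sampling noise (chi-square per degree of freedom 0.953 in WT and 0.958 in Tet2-KO), whereas replicate 1 differed from both. This was read over listed windows only, which the authors' test had chosen from the same libraries. Replicates 2 and 3 were averaged and counted as 1 sample, which leaves n = 2 a group. No Input library of the Tet2 comparison was used, so less methylation and fewer copies of a DNA sequence in the Tet2-KO line cannot be told apart. Of the 5 listed windows in the Tet2 gene, all were lower in Tet2-KO and 0 belonged to the windows described here.

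TET2 is an enzyme that oxidises 5mC, in DNA and, in the study's model, in chromatin-associated RNA. DNA methylation in mammals sits mostly at CpG sites, and in mES cells much of it lies on transposable elements. LINE-1 elements carry at their 5′ end a promoter that is rich in CpG, and in mouse it is built of repeated monomers, whose type defines subfamilies such as L1MdA and L1MdTf. At imprinted genes a germline differentially methylated region (DMR) is methylated on the allele of one parent, and the zinc finger protein ZFP57, which binds the methylated hexamer TGCCGC, protects this mark after fertilisation.

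Both kinds of sequence were among the windows lost to near the floor. Of all 1125, 557 (49.5%) matched one another as a single repeat family, most of which lay at the 5′ side of L1MdA elements, 65 (5.78%) lay at imprinted genes, and the other 503 (44.7%) were a mixture led in signal by a tandem repeat on chromosome 10.

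The following windows show the imprinted kind and the tandem repeat. Each imprinted window is the one at its locus with most copies of the ZFP57 hexamer, among those that overlap no exon, and the capitals mark TGCCGC or its reverse complement GCGGCA. They are the plus strand of GRCm38 (the mm10 build of the files) at chr7:6730101-6730200 in an intron of Peg3, chr6:4747901-4748000 in an intron of Peg10, chr7:128687901-128688000 in an intron of Inpp5f, chr10:13091201-13091300 in an intron of Plagl1, and, for the tandem repeat, chr10:3116601-3116700 outside any gene, where the capitals mark the only CpG.
Peg3: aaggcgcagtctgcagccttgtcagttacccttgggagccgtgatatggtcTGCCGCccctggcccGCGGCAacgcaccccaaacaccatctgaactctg
Peg10: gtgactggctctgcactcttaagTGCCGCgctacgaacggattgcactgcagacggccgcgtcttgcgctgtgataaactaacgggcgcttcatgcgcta
Inpp5f: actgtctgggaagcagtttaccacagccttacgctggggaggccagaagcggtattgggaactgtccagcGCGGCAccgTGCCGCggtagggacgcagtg
Plagl1: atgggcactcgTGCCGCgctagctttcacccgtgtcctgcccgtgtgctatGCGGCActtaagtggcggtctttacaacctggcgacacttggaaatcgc
Tandem repeat: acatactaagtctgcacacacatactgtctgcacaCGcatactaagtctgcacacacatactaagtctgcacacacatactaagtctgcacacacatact

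The Peg3 window held 37, 32 and 38 reads in the 3 WT libraries and 0, 1 and 0 reads in the Tet2-KO libraries. The tandem repeat window, with the highest WT signal of all 1125, held 275, 234 and 287 reads in WT and 1, 1 and 3 in Tet2-KO. The 2 windows had 6 and 1 CpG sites, so the highest signal was not at the window with more CpG sites. Over all 1125 windows the correlation across windows between CpG count and WT signal was weak (Pearson's r of -0.03 with log2 RPKM, Spearman's rho of 0.089), where the windows share libraries and repeat sequence.

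The WT signal of single windows ran from 8.04 to 201 RPKM. The median over windows of the mean WT signal was 14.9 RPKM, with 10% of windows below 10.8 and 10% above 25.6 RPKM. The 3 WT libraries had medians of 16.5, 14.3 and 14.3 RPKM, and each window held at least 6 reads in every WT library and 32 to 796 reads over the 3. In the Tet2-KO libraries the medians were 1.12, 0.71 and 0.71 RPKM, each of which is 1 read in a window. Of the 1125 windows 34.04%, 19.6% and 23.6% were at 0 in Tet2-KO replicates 1, 2 and 3, of which replicate 1 was the shallowest library with 8920000 reads. The Tet2-KO libraries did not overlap the WT libraries in RPKM at any of the 1125 windows, which follows largely from the choice of windows among the 0.279% listed as lower.

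The reads pooled over the windows and divided by the library totals were 6.64%, 5.39% and 5.15% of the mean WT value in the 3 Tet2-KO libraries, or 5.73% on average. At the 390 windows whose middle 32 bases occur once in the reference it was 5.52%. With TMM factors computed from all listed windows in place of library totals the average became 21.4%. At the partly lower windows, which had more than 3 reads in at least 1 Tet2-KO library, 39.0% of the WT value was left with library totals. Just inside the limit, the 489 windows whose highest Tet2-KO count was 3 had a median of 15.6 RPKM in WT and 1.59 in Tet2-KO. Just outside it, the 480 windows with a highest count of 4 had medians of 16.97 and 2.26 RPKM, so the limit fell within a continuous range. A limit of 2 reads would have left 636 windows.

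The windows merged into 601 regions without a gap, of which 333 were a single window and 31 held at least 5 windows. They lay beside other lower windows: 229 of the 1125 (20.4%) had a window with 0 Tet2-KO reads within 1 kb and 667 (59.3%) had a partly lower window there, while 0 had a higher window that close. The same chromosomes held 4656 partly lower windows but 1923 higher ones. These shares were not computed for other windows, so nothing particular to the windows near the floor is read from them. By chromosome the windows made up 9.90% (chromosome 13) to 31.2% (chromosome 19) of the lower windows listed.

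Imprinted genes held 65 of the windows. Of 36 imprinted genes of the list on these chromosomes, 16 (44.4%) had such a window in the gene or within 1 kb of a start, against 166 of 18150 protein-coding genes (0.915%). The list was fixed with earlier results of these data known, and neighbouring genes such as Peg10 and Sgce share one DMR, so genes are not independent. The same genes held 43 of the 322 windows with 0 Tet2-KO reads and 67 of the 4656 partly lower windows. Imprinted genes are therefore not particular to the windows near the floor. The 65 windows fell in 10 loci, all of which carry, as background, a germline DMR methylated on the maternal allele. Of the 65 windows, 64 had 1 reference copy, 0 were soft-masked as repeat over at least 50% of their bases, 59 lay within 1 kb of a protein-coding start, and the median was 7 CpG sites. Counted by merged region, imprinted genes held 3.16% of regions in place of 5.78% of windows. The 59 windows near a start made up 62.1% of the 95 windows near a start among all 1125.

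**Figure D1:**
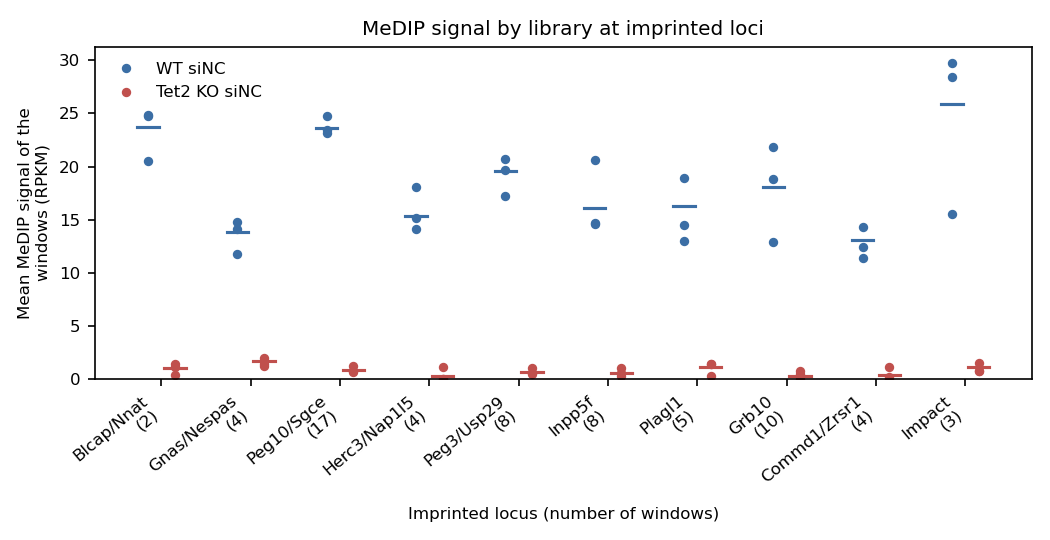
Mean MeDIP signal in RPKM over the windows lost to near the floor at each of 10 imprinted loci, with the number of windows in brackets. Points are the 3 libraries of WT siNC (blue) and Tet2 KO siNC (red) and bars the mean of n = 2 (replicate 1, and the mean of replicates 2 and 3). WT libraries lie between 11.4 and 29.8 RPKM and Tet2-KO libraries between 0 and 1.96 RPKM.

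The Peg10/Sgce locus on chromosome 6 held the longest unbroken run of windows at an imprinted gene. Peg10 is a retrotransposon-derived gene expressed from the paternal allele and needed in the placenta, and Sgce encodes a sarcoglycan and starts beside it in the other direction. The 14 touching windows at chr6:4746801-4748200, which overlap exons of both genes and hold 102 CpG sites, had 25.4, 24.5 and 25.9 RPKM in the WT libraries and 0.64, 0.761 and 1.31 RPKM in the Tet2-KO libraries. The means were 25.3 ± 0.150 and 0.838 ± 0.280 RPKM (SD, n = 2 each). With the flanking windows at 0 reads, all 26 listed windows of the locus held 2140 WT reads and 56 Tet2-KO reads, 2.74% of WT per library total.

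At Peg3 and Usp29 on chromosome 7, whose starts face apart over one DMR, 8 windows were near the floor and 8 more had 0 Tet2-KO reads. Peg3 encodes a zinc finger protein expressed from the paternal allele, and Usp29 a ubiquitin-specific protease. The 8 windows had 20.7, 17.2 and 19.7 RPKM in WT and 0.56, 0.976 and 0.441 RPKM in Tet2-KO. The lowest WT library was above the highest Tet2-KO library, as at all 1125 windows, which follows largely from their choice.

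At Grb10, which encodes an adaptor that restrains growth signalling, the 10 windows between 12025901 and 12027100 on chromosome 11 had 18.8, 12.9 and 21.9 RPKM in WT and 0, 0.71 and 0.425 RPKM in Tet2-KO. The other 9 listed windows there were 6 with 0 Tet2-KO reads and 3 partly lower. At Zrsr1, a retrogene inside an intron of Commd1, 4 windows were near the floor, 10 had 0 Tet2-KO reads and 1 was partly lower, and over all 15 the Tet2-KO reads were 1.48% of WT. At Nap1l5, a retrogene inside Herc3, 4 windows were near the floor and 6 at 0, and 0.897% of WT was left over the 10 windows.

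Inpp5f, which encodes a phosphoinositide phosphatase, has its DMR at an internal start. The 8 touching windows at chr7:128687801-128688600 had 14.6, 20.6 and 14.6 RPKM in WT and 0.28, 0.976 and 0.532 RPKM in Tet2-KO. At Plagl1, which encodes a zinc finger protein that slows cell growth, 5 windows between 13090401 and 13091400 on chromosome 10 had 18.9, 12.9 and 14.5 RPKM in WT and 1.34, 1.42 and 0.284 RPKM in Tet2-KO. At both loci some listed windows stayed above the limit: 3 at Inpp5f and 5 at Plagl1 were partly lower. The 3 windows at Impact, a regulator of translation, had 29.8, 15.5 and 28.4 RPKM in WT and 1.49, 0.71 and 0.707 RPKM in Tet2-KO, and 3 more were at 0.

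At other loci most listed windows were partly lower. At Gnas and Nespas, where Gnas encodes a stimulatory G protein subunit and Nespas is its antisense transcript, 4 windows were near the floor and 24 were partly lower, and over the 28 windows 16.9% of the WT value was left. At Nnat and Blcap, where the paternally expressed Nnat lies in an intron of Blcap, the numbers were 2 near the floor, 1 at 0 and 6 partly lower, with 5.57% of WT left over the 9. At Mest all 21 listed windows were partly lower (14.3% of WT left), as were 2 at H13/Mcts2 and 1 at Airn/Igf2r. Of the 175 listed windows at imprinted genes 0 were higher in Tet2-KO. Snrpn and Kcnq1ot1, whose DMR is maternal, had 0 listed windows. H19 and Rasgrf1, whose paternal germline DMR lies upstream of the gene, had none in the gene or within 1 kb of a start. The files list only windows past the authors' threshold, so the level at a window that is not listed is not known here.

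Farther upstream of Rasgrf1, which encodes a guanine nucleotide exchange factor for Ras, 3 windows near the floor lay outside any gene at chr9:89879601-89879900, 30008 bases from the start. They are not among the 65, and were picked out after their values were seen. They held 89, 86 and 113 reads in the WT libraries and 5, 2 and 4 in the Tet2-KO libraries, or 24.4 ± 1.90 and 1.29 ± 0.820 RPKM (SD, n = 2 each). The groups did not overlap, as at all 1125 windows, which follows largely from the choice of windows. All 3 had 1 reference copy and the ZFP57 hexamer, and together they held 29 CpG sites.

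**Figure D2:**
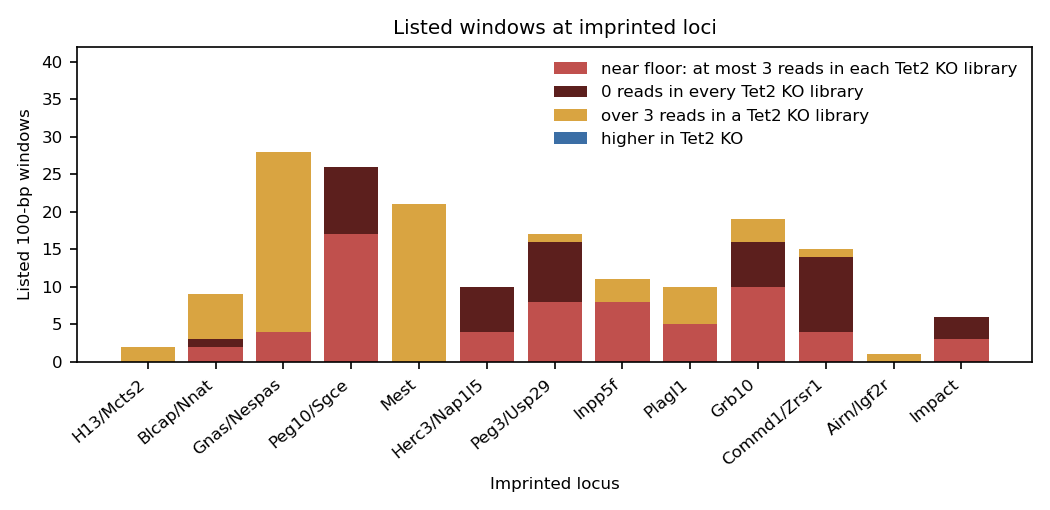
Number of listed 100-bp windows at each of 13 imprinted loci by class: near the floor (red), 0 reads in every Tet2-KO library (dark red), over 3 reads in at least 1 Tet2-KO library (yellow) and higher in Tet2-KO (blue, 0 windows). Peg10/Sgce holds 17 near the floor and 9 at 0, and the 21 windows at Mest are all partly lower.

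The ZFP57 hexamer, searched on both strands and lying wholly in the window, was present in 14 of the 65 imprinted windows (21.5%) and in 34 of the other 1060 (3.21%). The largest repeat family held it in 0 of 557 windows, so these 34 were all among the 503 windows of neither kind. It stood in 0.622% of all 100-bp windows of these chromosomes and in 7.37% of those with at least 5 CpG sites. Of the 46 imprinted windows with at least 5 CpG sites 14 (30.4%) held it. Of all 179 windows with at least 5 CpG sites outside the largest family, these 46 included, 36 (20.1%) held it. Grb10 and Inpp5f had 3 windows with the hexamer each, and Peg10, Peg3, Plagl1 and Impact 2 each. The letters TGCCGC contain a CpG, so windows with more CpG sites hold it more often, and a match is a description of sequence only.

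The repeat family at L1MdA elements made up the largest kind. Of its 557 windows, which aligned to one another over at least 50 bases at 75% identity or more in a chain, all were soft-masked over at least 50% of bases, the median was 6 CpG sites and the middle 32 bases had a median of 2223 copies in the reference. The following 30 bases occur in 141 of them (25.3%), more than any other run of 30 bases, and in 410 partly lower windows, 5 windows at 0 and 1 higher window. They are given on the strand of the LINE-1 element, on which they lay at 123 of 123 windows placed 5′ of an L1MdA amplicon, with the only CpG in capitals.
L1MdA family: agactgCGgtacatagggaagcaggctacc

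The family was placed by the study's own bisulfite primers, matched to the converted reference, which amplify named LINE-1 subfamilies. The middle of 475 of the 1125 windows (42.2%) lay 0 to 3000 bases on the 5′ side of an L1MdA amplicon on its strand, and 470 of these belonged to the family. The same place held 0.321% of all 100-bp windows of these chromosomes, 29.1% of the partly lower windows, 6.21% of those with 0 Tet2-KO reads and 0.468% of the higher windows. The corresponding place at the amplicons of L1MdTf, L1MdGf, L1MdF and L1MdV held 0 of the 1125 windows, where 0.129% (0.117% for a second L1MdTf amplicon), 0.150%, 0.00622% and 0.0308% of all windows lie. This measure was chosen after the values were seen.

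The 475 windows lay at a median distance of 1026 bases from the amplicon, with quartiles of 828.5 and 1346.5 bases, and 92.4% between 500 and 2000 bases. The 1354 partly lower windows at the same elements lay at a median of 799 bases, with quartiles of 647 and 1076 bases. Only 208 of 2131 L1MdA amplicons on these chromosomes (9.76%) had a window near the floor on their 5′ side, 516 (24.2%) had any lower window and 3 had a higher one. Of the 475 windows 175 (36.8%) lay in a gene, against 44.8% of all 1125, 45.3% of all partly lower windows and 49.2% of all 100-bp windows of these chromosomes. The share for the 1354 partly lower windows at the same elements was not computed, so nothing is read from the difference.

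**Figure D3:**
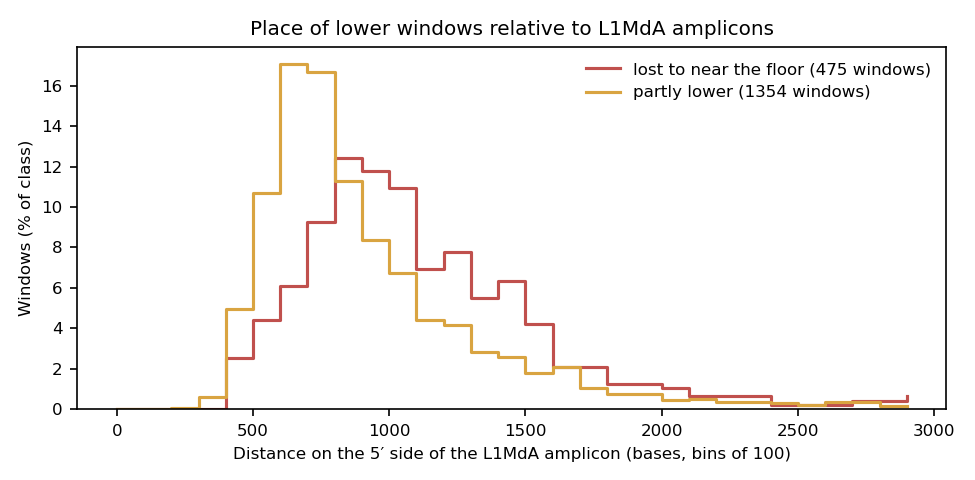
Distance in bases from the middle of a window to an L1MdA amplicon downstream on the same strand, in bins of 100 bases, as a percent of each class. The 475 windows lost to near the floor (red) have a median of 1026 bases and the 1354 partly lower windows (yellow) one of 799 bases.

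At these 475 windows the WT libraries had medians of 16.5, 13.6 and 13.7 RPKM and the Tet2-KO libraries 1.12, 1.42 and 1.41 RPKM, and pooled Tet2-KO reads were 8.84% of WT. The authors kept the best alignment of each read, so a read from one copy can be placed at another copy of the same sequence, and values at these windows belong to the family more than to the locus. The 26 windows of the 475 with 1 reference copy held 476, 445 and 535 reads in WT and 35, 35 and 36 in Tet2-KO, or 8.16% of WT. The longest runs that held windows of the 475, of any copy number, included 8 windows at chr6:84713401-84714200 in an intron of Exoc6b, an exocyst subunit gene. Another 8 lay at chr14:68476601-68477400 in Gm31227, and all windows of both runs were 5′ of an L1MdA amplicon. Of 11 windows at chr7:41173701-41174800 in Gm5592 and Gm44748, outside protein-coding exons, 5 were 5′ of one. The Exoc6b run held 2 windows with 1 reference copy and the Gm5592 run 0. The Exoc6b run had 23.6, 17.8 and 17.7 RPKM in WT and 2.52, 0.887 and 1.06 in Tet2-KO. The Gm31227 run, named for its equal length, had 18.8, 14.8 and 15.7 RPKM in WT and 2.66, 1.60 and 0.973 in Tet2-KO. The Gm5592 run had 14.9, 11.97 and 16.8 RPKM in WT and 2.04, 0.452 and 1.80 in Tet2-KO.

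Other repeats were smaller. The amplicons of all the study's repeat primers, which also target IAP and other long terminal repeat elements and the short B1 and B2 repeats, overlapped 11 of the 1125 windows (0.978%): 6 at RLTR10, 3 at IAP and 1 each at B2_Mm1t and B2_Mm1a. RLTR10 amplicons also overlapped 3 of the 322 windows with 0 Tet2-KO reads, 22 of the 4656 partly lower windows and 30 of the 1923 higher windows, so they are not particular to the windows near the floor. A family of 32 windows on 10 chromosomes had 11 within 8 kb of an IAP amplicon and a median of 16.1 RPKM in WT, and another of 16 windows had 8 there. A further family of 16 windows lay within 8 kb of the study's general LINE-1 amplicon in 12 cases and of an L1MdA amplicon in 0. The share of all windows within 8 kb of these amplicons was not computed, so these counts are a description only. Of the 1125 windows 347 matched no other.

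The strongest WT signal of all lay in a tandem repeat at the start of chromosome 10, with no gene there. The family held 40 windows in 11 regions between 3109401 and 3117200, with a median of 1 CpG site, 35 reference copies of the middle 32 bases and 107 RPKM in WT. The 3 windows at chr10:3116501-3116800 had 220, 174 and 178 RPKM in the WT libraries and 1.49, 1.42 and 1.88 in the Tet2-KO libraries. The longest region of all, 16 windows at chr10:3112101-3113700, had 108, 105 and 97.5 RPKM in WT and 1.68, 0.843 and 0.221 in Tet2-KO. Only 45 of the 1125 windows were above 50 RPKM in WT. The 3 further regions named here, at 3109801 to 3110300, 3111401 to 3111900 and 3114901 to 3115100, averaged 123 ± 7.76, 123 ± 15.7 and 107 ± 11.2 RPKM in WT (SD, n = 2 each). The last window of the array, at chr10:3117101-3117200, had 1 reference copy and 43.4, 40.6 and 35.2 RPKM in WT and 0, 2.13 and 0.71 in Tet2-KO.

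**Figure D4:**
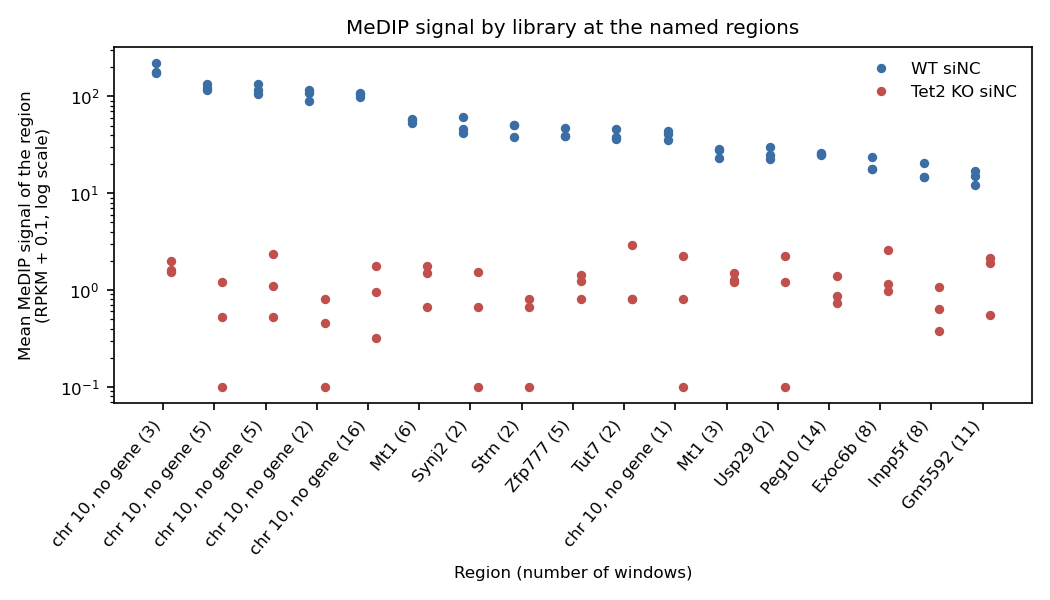
Mean MeDIP signal of the named regions in RPKM plus 0.1 on a log scale, ordered by WT signal, with the number of windows in brackets. Points are the 3 libraries of WT siNC (blue) and Tet2 KO siNC (red), and a point at 0.1 is a library with 0 reads. The 5 strongest regions all belong to the tandem repeat on chromosome 10. Every Tet2-KO library lies below every WT library, which follows largely from the choice of windows.

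Among regions with 1 reference copy, the metallothionein gene Mt1 on chromosome 8, whose product binds zinc and copper, had the strongest signal. The 6 windows at chr8:94179701-94180300, over coding and untranslated exon, had 58.3, 53.1 and 56.99 RPKM in WT and 0.56, 1.66 and 1.41 in Tet2-KO. The 3 windows at chr8:94179301-94179600, nearer the start, had 23.1, 28.6 and 27.6 RPKM in WT and 1.12, 1.18 and 1.41 in Tet2-KO. Zfp777, a zinc finger gene, had 5 windows at chr6:48024901-48025400 over coding exon with 46.7, 39.3 and 38.7 RPKM in WT and 1.34, 1.14 and 0.706 in Tet2-KO. The WT means were 56.6 ± 2.29 RPKM over the 6 windows of Mt1 and 42.8 ± 5.43 over the 5 of Zfp777 (SD, n = 2 each), above the median of 14.9 RPKM of all windows.

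In introns, 2 windows of Synj2, a phosphoinositide phosphatase gene, at chr17:5949301-5949500 had 41.6, 45.9 and 61.2 RPKM in WT and 0.56, 1.42 and 0 in Tet2-KO. The 2 windows in Strn, which encodes the scaffold striatin, at chr17:78661501-78661700 had 38.2, 50.05 and 50.8 RPKM in WT and 0.56, 0.71 and 0 in Tet2-KO. They held 20 and 21 CpG sites, were soft-masked, and matched the same family of 23 windows. At Tut7, a terminal uridylyltransferase gene, 2 windows at chr13:59784401-59784600 with the nearer edge 240 bases from a start had 46.4, 36.5 and 37.8 RPKM in WT and 2.80, 0.71 and 0.71 in Tet2-KO, with 2 CpG sites in all. The 2 windows at the start of Usp29, at chr7:6730501-6730700, had 29.9, 22.2 and 24.4 RPKM in WT and 1.12, 2.13 and 0 in Tet2-KO.

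The other gene lists are read against the 0.915% of protein-coding genes with such a window. DNA methylation machinery (21 genes on these chromosomes), retroelement silencing (22) and pluripotency (17) had 0, and lists this short would hold few at that share. Of 15 germline genes Ddx4, an RNA helicase of germ cells, had 1 intronic window within 1 kb of a start, with 9, 13 and 14 reads in WT and 0, 0 and 1 in Tet2-KO. Of 382 zinc finger genes named Zfp 5 (1.31%) had 17 windows, a share near that of all protein-coding genes: 8 in exons of Zfp777, 5 in exons of Zfp444, 2 in Zfp64, and 1 each at Zfp229 and Zfp654, the last 5′ of an L1MdA amplicon. At Zfp444 the 5 windows held 103, 102 and 130 reads in WT and 3, 3 and 4 in Tet2-KO, and 2 of them held the ZFP57 hexamer. Of 1352 olfactory receptor genes Olfr18 and Olfr761 (0.148%) had 1 window each, and vomeronasal receptors (558) and protocadherins (67) had 0. Predicted genes with a Gm number had 107 windows in 44 of 19520 genes (0.225%).

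Set beside the other listed windows of the same chromosomes, the windows near the floor were the most often soft-masked and lay between the windows with 0 Tet2-KO reads and the partly lower windows in GC content, reference copies and distance to a start. Soft-masking covered 50% or more of the window in 72.7%, against 49.4% of windows with 0 Tet2-KO reads, 68.2% of partly lower windows, 53.2% of higher windows and 29.4% of all 100-bp windows. The middle 32 bases had 1 reference copy in 34.7%, against 52.5%, 29.6% and 40.6% of the other 3 classes. The median CpG count was 5, against 3, 5 and 4, and the mean GC content 56.7% against 53.2%, 57.1% and 52.1%. A protein-coding start lay within 1 kb of 8.44%, against 13.04%, 3.80%, 9.26% and, of all windows, 4.28%. Without the largest family, the other 568 windows were soft-masked in 46.0% and had 1 reference copy in 64.1%, a protein-coding start within 1 kb in 16.5% and a median of 3 CpG sites. The classes are cut from the same counts, so these are descriptions with no test.

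**Figure D5:**
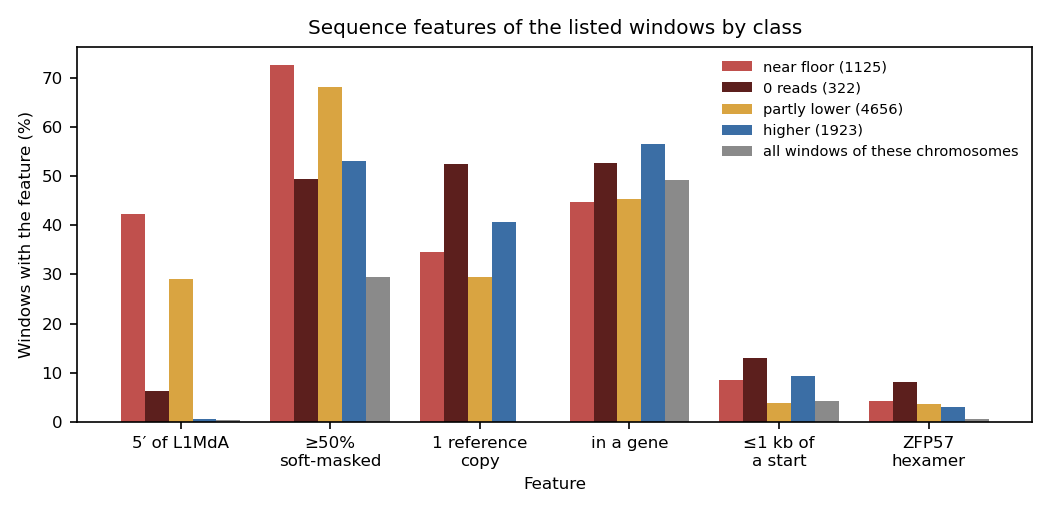
Percent of windows with each sequence feature for windows lost to near the floor (red, 1125), with 0 Tet2-KO reads (dark red, 322), partly lower (yellow, 4656) and higher (blue, 1923), and for all 100-bp windows of these chromosomes (grey, not computed for reference copies). The place 5′ of L1MdA holds 42.2% of the windows near the floor and 0.321% of all windows.

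The other 3 lists of the series were read for the same windows. Neither the 31 windows listed for siNsun2 in WT cells nor the 244 listed for siNsun2 in Tet2 KO cells held any of the 1125, where 0.000747% and 0.0056% of windows tested were listed (0% and 0.00378% as lower). These comparisons share the WT siNC and the Tet2 KO siNC libraries with the rule, and a window with at most 3 reads in each Tet2 KO siNC library could hardly be listed as lower again, so nothing is read from these counts. The list for Pspc1 KO, a deletion of a paraspeckle RNA-binding protein gene, held 12 of them (1.07% of the 1125 and 3.91% of its 307 windows), where 0.00571% of windows tested were listed. It also held 107 of the 4656 partly lower windows, 2 of the 322 with 0 Tet2-KO reads and 9 of the 1923 higher windows, so the overlap is not particular to the windows near the floor. These immunoprecipitated libraries and their Input are other samples than those of the Tet2 comparison. All 12 were lower in Pspc1 KO, at 47.7% to 66.1% of the WT mean. Of the 307 windows in that list 249 were lower (0.00463% of windows tested). At all 12 the highest Pspc1 KO library was below the lowest WT library, which follows largely from the authors' test on these libraries.

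The 12 windows lay in 6 blocks, of which 5 are described. At Zfp777 the 5 windows of chr6:48024901-48025400 had 94.1, 87.3 and 85.2 RPKM in the WT IP libraries and 60.5, 54.9 and 56.1 in the Pspc1 KO IP libraries, with 0 to 2.47 RPKM in the Input libraries. At Nnat the window chr2:157560001-157560100 had 65.3, 65.8 and 63.8 RPKM in WT IP and 37.2, 43.0 and 46.7 in Pspc1 KO IP. At Zfp444 the windows of chr7:6189601-6189800 had 42.5, 53.7 and 53.9 RPKM in WT IP and 25.3, 27.4 and 26.3 in Pspc1 KO IP. At these 3 loci the Input libraries of WT had 0 to 2.96 RPKM. The 2 windows chr17:39846601-39846700 and chr17:39848701-39848800 in CT010467.1, annotated as an rRNA gene, differed in that their Input had 26.6 to 37.1 RPKM in WT and 22.8 to 34.4 in Pspc1 KO. Their IP signal was 56.5 to 67.3 RPKM in WT and 26.7 to 37.6 in Pspc1 KO.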

How the data were processed

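MeDIP–seq libraries of WT and Tet2-KO mES cells were analysed from the deposited tables. The authors trimmed reads with Trimmomatic 0.39, aligned them to mm10 with Bowtie2 2.4.1 keeping the best alignment, removed duplicates with Picard and counted reads in windows of 100 bp with MEDIPS, whose edgeR test lists windows at an adjusted p (Bonferroni) under 0.1. Per the file headers each window has deposited read counts, RPKM values and a CpG coupling factor, which equalled the CpG count of the GRCm38 reference in 100% of 14454 windows. The fold changes and p-values in the deposited tables are the authors' comparisons and were not used, except that the ratio of adjusted p-value to p-value gave the number of windows tested.

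The windows and gene lists described here were chosen with earlier results of these data known. No test was run on the windows, since the rule and the authors' list used these libraries. Library totals were the median of count over RPKM in the 200 highest windows, 8920000, 14070000 and 14170000 reads in Tet2 KO siNC and 11530000, 13290000 and 15350000 in WT siNC. At these totals 1 read in a window is 0.71 to 1.12 RPKM in Tet2-KO. Replicates were compared by chi-square over listed windows of at least 20 reads, checked on simulated counts. The study calls the replicates of its genome-wide data biological, but the labels do not name separate cultures and replicates 2 and 3 agree within sampling noise, so the SD measures the spread between these samples, which may be technical.

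Genes were those of GENCODE vM21, and sequences those of GRCm38. Reference copies are exact matches of the middle 32 bases on both strands. Families were joined from blastn 2.17.0 matches of at least 50 bases and 75% identity. Amplicons of the study's repeat primers were matched exactly, up to 600 bases long. Windows without a gap were merged, and the regions named are the 5 with the highest WT RPKM among all, among those of 1 reference copy, among protein-coding exons and within 1 kb of a protein-coding start, the 5 longest, and those in another list or in a gene of the lists. Alternatives were other count limits, TMM (edgeR 4.0.16) and DESeq2 1.42.0 factors, left-out replicates, single-copy windows, 1 value per region and other definitions of features. One block of windows shared with the Pspc1 KO list is not reported here.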

Additional observations from a re-analysis of the deposited data

How the results depend on the processing

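The number of windows rests on the limit. It was 636 with a highest count of 2 and 390 with 1 reference copy, against 1125, and lay within 1.5 times of it with a highest count of 4 (1605), with limits scaled to library totals (1479), with at least 20 reads over the 6 libraries (1125) and without 1 Tet2-KO replicate (1199 to 1408). Merging over gaps of up to 500 bp gave 512 regions in place of 601. The WT signal was 14.2 to 15.4 RPKM without 1 WT replicate. The Tet2-KO signal left was 5.27% to 6.02% of WT without 1 replicate of either group, but 21.4% with TMM factors and 21.0% with DESeq2 size factors from all listed windows, most of which are lower in Tet2-KO, so that these factors take up part of the difference. The share with 1 reference copy became 41.1% with the middle 50 bases, and the share soft-masked 68.0% at 80% of bases. By alternatives chosen after seeing the data, the share at imprinted genes was 3.16% per merged region, windows 5′ of an L1MdA amplicon were 44.6% up to 5 kb and 43.1% per merged region, and the largest family was 49.4% at 90% identity and 50.2% per merged region. No paired analysis was run, because the windows were chosen by this same contrast and no test was run on them. With at most 3 reads a window in each Tet2-KO library, the value of a single window there is limited by counting error.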
